A study of Mus musculus with 9 samples.

Results

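The myeloid genes examined were Cebpa, Cebpb, Cebpd, Mpo, Elane, Lyz2, Itgam, Csf1r, Csf3r and Fcgr3. These 10 genes were chosen by symbol out of 50686 genes counted in each library, and all 10 were found in the tables. Reads were counted in mRNA of BCR/ABLp185+ cell lines, made by infecting mouse bone marrow (C57BL/6N) with a retrovirus that encodes the BCR/ABLp185 oncogene. The 3 groups were wt, Stat5a-/- and Stat5b-/-, where the knockout cells came from mice that lack the gene in all tissues, and the wt line carried the oncogene as well. There was 1 line per genotype with 3 technical replicates, so that 9 libraries were compared, and a difference between lines cannot be told apart from a difference between genotypes. All p-values measure the spread between libraries of 1 line. The comparison asked whether lines of the B lineage that lack a STAT5 protein carry more or fewer transcripts of myeloid cells, which is called lineage infidelity.

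Myeloid cells are the granulocytes, monocytes and macrophages. Their genes are switched on by transcription factors of the C/EBP family together with PU.1. Cebpa drives the step from progenitor to granulocyte and monocyte precursors, Cebpb acts in emergency granulopoiesis and in macrophages, and Cebpd acts in inflammation and in the late stages of granulocytes. Forced C/EBP expression can turn B-lineage cells into macrophages, whereas the B-lineage factor Pax5 represses myeloid genes such as Csf1r. STAT5A and STAT5B are closely related transcription factors that are activated by cytokine receptors and by the BCR/ABL kinase.

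The libraries held between 11948136 and 19016396 counted reads. Normalized CPM is the unit of all levels below, that is, counts relative to a library total scaled with the TMM factors of edgeR. At this depth 3 reads corresponded to between 0.152 and 0.270 CPM, depending on the library. Stat5a was at 43.1 ± 6.35 CPM in wt (SD, n = 3) and at 12.4 ± 1.02 CPM in Stat5a-/-. Stat5b was at 105.5 ± 1.96 CPM in wt and at 63.4 ± 7.72 CPM in Stat5b-/-. Both knocked-out genes were therefore lower in their own line, but reads remained. The B-lineage label was held against Pax5, Ebf1 and Cd79a. Per exon length (RPKM, which is CPM per kilobase of exon), Pax5 averaged 137 in wt, 137 in Stat5a-/- and 105 in Stat5b-/-. Ebf1 averaged 61.5, 61 and 73.3 RPKM, and Cd79a averaged 489.5, 872 and 1039 RPKM, so that all 3 were well expressed in each line. Other B-lineage markers went either way, as counted below, and Rag1 and Rag2 fell most. Rag1 went from 64.7 CPM in wt to 0.158 in Stat5a-/- and 0.667 in Stat5b-/-, and Rag2 from 32.5 to 0.0767 and 0.677 CPM. T-cell transcripts were also present in every library. The summed level of 7 genes of the T-cell receptor complex and its CD8 co-receptor (Cd3e, Cd3d, Cd3g, Cd8a, Cd8b1, Trbc1 and Trbc2) was 489, 701 and 636 CPM in the wt libraries, 858, 862 and 717 in Stat5a-/- and 1557, 1021 and 1472 in Stat5b-/-. In such bulk libraries, more cells of a type and more RNA per cell cannot be told apart.

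Of the 10 genes, 5 had enough reads for the test (Cebpb, Cebpd, Lyz2, Csf1r and Fcgr3), and 5 did not (Cebpa, Mpo, Elane, Itgam and Csf3r). The levels of the 10 genes were far below those of Pax5, Ebf1 and Cd79a, though not below those of every B-lineage marker, since Ms4a1 was low in all lines and Rag1 and Rag2 were low in the knockout lines. Compared per exon length, the highest line mean among the 10 genes was that of Lyz2 in Stat5b-/-, at 6.26 RPKM, followed by Cebpb in wt at 4.63 RPKM. The plot of levels per exon length sets all 10 beside the B-lineage markers.

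**Figure D1:**
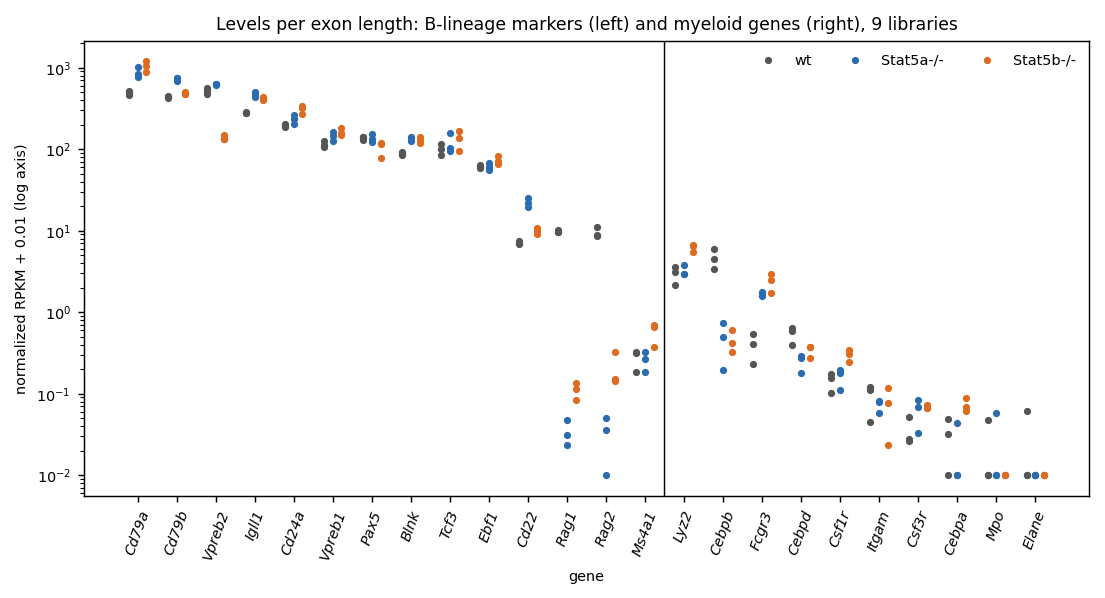
Normalized RPKM plus 0.01 on a log axis for 14 B-lineage markers (left of the line) and the 10 myeloid genes (right), each ordered by mean level; each point is 1 of 9 libraries, coloured by line. Lyz2, Cebpb and Fcgr3 lead the myeloid genes, with line means of at most 6.26 RPKM, against 105 to 137 RPKM for Pax5.

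Promoter sequences show the DNA in front of the genes whose values the comparison turns on, and of Elane, which had 1 read in all. RefSeq windows of 250 bases before the transcription start (GRCm38.p6) were used for 8 of the 10 genes. Cebpd and Csf1r were left out, so the matches below do not cover them. Each window was searched on both strands for a C/EBP motif (TTGCNNAA), a PU.1 motif (GAGGAAG) and a STAT motif (TTCNNNGAA). Over 32817 such windows of all genes, 9.57% held the C/EBP motif, 10.6% the PU.1 motif and 7.01% the STAT motif. Below, matches are in capitals, each sequence runs 5′ to 3′ on the strand of its gene, and bases that lie in an annotated exon were left off. The positions are chr2:167688665-167688914 (plus strand) for Cebpb, chr10:117282322-117282522 (minus strand) for Lyz2, chr1:171059404-171059626 (minus strand) for Fcgr3 and chr10:79886062-79886246 (plus strand) for Elane. The Fcgr3 stretch lies inside the span of the longer gene model, between annotated exons.
Cebpb: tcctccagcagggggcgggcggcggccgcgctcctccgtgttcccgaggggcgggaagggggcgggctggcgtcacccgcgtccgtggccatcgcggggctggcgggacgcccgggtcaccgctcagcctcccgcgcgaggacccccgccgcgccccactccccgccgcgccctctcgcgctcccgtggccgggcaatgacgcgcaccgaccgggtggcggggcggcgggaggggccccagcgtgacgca
Lyz2: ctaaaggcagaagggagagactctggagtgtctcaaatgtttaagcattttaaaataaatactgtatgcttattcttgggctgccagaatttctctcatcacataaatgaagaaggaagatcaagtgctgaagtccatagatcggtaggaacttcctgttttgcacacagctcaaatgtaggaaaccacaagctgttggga
Fcgr3: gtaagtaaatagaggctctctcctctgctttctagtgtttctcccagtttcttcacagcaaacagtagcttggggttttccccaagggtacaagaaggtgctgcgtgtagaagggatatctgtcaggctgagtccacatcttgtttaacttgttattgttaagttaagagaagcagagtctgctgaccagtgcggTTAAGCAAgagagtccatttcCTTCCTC
Elane: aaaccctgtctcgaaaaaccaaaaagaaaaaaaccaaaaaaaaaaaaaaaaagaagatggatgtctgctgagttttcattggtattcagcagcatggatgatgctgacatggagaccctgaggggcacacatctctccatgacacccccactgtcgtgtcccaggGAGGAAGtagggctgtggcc
The Cebpb stretch, rich in G and C, and the Lyz2 stretch held none of the 3 motifs. Fcgr3 held TTAAGCAA, a C/EBP motif read on the other strand, and CTTCCTC, a PU.1 motif read on the other strand, next to the start. Elane held a single PU.1 motif 85 bases before its RefSeq start, and Itgam held one at 84 bases, while Mpo held 2. The RefSeq window of Elane ends at position 79886311, past the start of its deposited gene model (79886247), so the motif is nearer to that start. The single PU.1 motif of Csf3r, at 86 bases, lay in annotated exon sequence. No window of the 8 genes held the STAT motif, and Cebpa held none of the 3. A match is only a match of letters, and the motifs were not set beside any binding data.

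Among the C/EBP factors, Cebpb fell in both knockout lines and Cebpd in Stat5a-/-. Cebpb (ENSMUSG00000056501.3, chr2:167688915-167690418 of GRCm38, 1504 bases of exon) had 142, 100 and 118 reads in the wt libraries, but 4, 9 and 12 in Stat5a-/- and 13, 7 and 8 in Stat5b-/-. In CPM these were 9.01, 5.05 and 6.82 in wt, 0.280, 0.732 and 1.08 in Stat5a-/- and 0.891, 0.478 and 0.609 in Stat5b-/-. Every wt library lay above all 6 knockout libraries, and the lines without Stat5a or Stat5b overlapped each other. The mean fell from 6.96 ± 1.98 CPM in wt to 0.698 ± 0.402 in Stat5a-/- and 0.660 ± 0.211 in Stat5b-/- (SD, n = 3). Tested with edgeR's quasi-likelihood method, Cebpb was 10.2-fold lower in Stat5a-/- (log2 fold change -3.35, SE 0.36, Benjamini-Hochberg adjusted p = 8.48e-06). In Stat5b-/- it was 10.4-fold lower (log2 fold change -3.37, SE 0.36, adjusted p = 5.60e-06). Between the knockout lines the log2 difference was -0.02 with an SE of 0.52 (adjusted p = 0.982), which leaves room for a difference in either direction.

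Cebpd (ENSMUSG00000071637.5, chr16:15887286-15891031) had 23, 47 and 38 reads in wt, 15, 12 and 7 in Stat5a-/- and 20, 20 and 13 in Stat5b-/-. The levels were 1.46, 2.37 and 2.19 CPM in wt, 1.05, 0.976 and 0.631 in Stat5a-/- and 1.37, 1.37 and 0.990 in Stat5b-/-. No knockout library reached the lowest wt library. Cebpd fell in Stat5a-/- by 1.17 on the log2 scale (SE 0.30, adjusted p = 0.0081). Its log2 difference of -0.69 in Stat5b-/- did not pass the test (SE 0.28, adjusted p = 0.0566). The value passed with RLE normalization (adjusted p = 0.0488) and with a correction for GC content (adjusted p = 0.0462), but not with DESeq2 (adjusted p = 0.0978), and the adjusted p ran from 0.0247 to 0.192 with 1 library left out (log2 differences of -0.87 to -0.56). Stat5b-/- against Stat5a-/- gave 0.47 with an SE of 0.33 (adjusted p = 0.296).

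Cebpa (ENSMUSG00000034957.10, chr7:35119293-35121928), the founding factor of the granulocyte and monocyte lineage, was close to absent. It had 0, 2 and 1 reads in wt, 0, 0 and 1 in Stat5a-/- and 3, 2 and 2 in Stat5b-/-. These counts were at or under 3 reads in every library, and a difference was not detectable at this depth. Per exon length, Cebpb made up 88.5% ± 5.29 of the summed level of the 3 C/EBP genes in wt, 61.0% ± 19.4 in Stat5a-/- and 52.1% ± 7.63 in Stat5b-/- (SD, n = 3). Cebpd took 11.1% of that sum in wt, 37.7% in Stat5a-/- and 40.4% in Stat5b-/-. These shares leave out Cebpg, a widely expressed family member, which was higher per length than any of the 3, at 7.70 RPKM in wt, 6.21 in Stat5a-/- and 6.66 in Stat5b-/-. Its log2 differences from wt were -0.31 (adjusted p = 0.123) and -0.21 (adjusted p = 0.261).

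**Figure D2:**
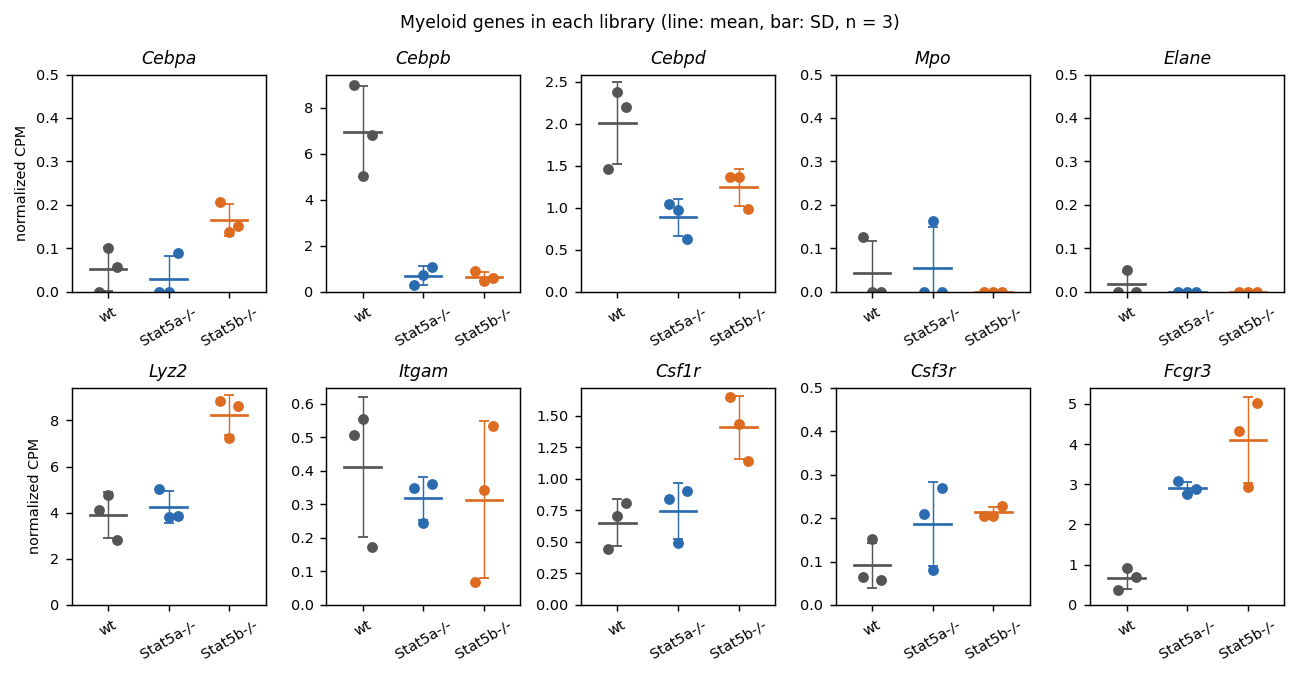
Normalized CPM of each of the 10 genes (linear axes that start at 0, scaled per gene), with 1 point per library, the line mean as a horizontal line and its SD as a bar (n = 3). Cebpb and Cebpd are highest in the wt libraries, Fcgr3 is lowest there, and Lyz2 and Csf1r are highest in the Stat5b-/- libraries.

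Of the 3 genes for granule and secreted proteins, Mpo and Elane were nearly silent and Lyz2 was not. Mpo (ENSMUSG00000009350.13, chr11:87793581-87804413), the myeloperoxidase of the primary granules, had 2, 0 and 0 reads in wt, 0, 2 and 0 in Stat5a-/- and none in the Stat5b-/- libraries. Elane (ENSMUSG00000020125.7, chr10:79886247-79888215), which encodes neutrophil elastase, had 1 read in 1 wt library and none in the other 8. A count of 0 allows up to 3 reads, which were 0.206, 0.205 and 0.229 CPM in the Stat5b-/- libraries, and this covers counting error only.

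Lyz2 (ENSMUSG00000069516.8, chr10:117277331-117282321), the lysozyme of granulocytes and macrophages, was read in every library. It had 65, 94 and 49 reads in wt, 72, 47 and 43 in Stat5a-/- and 129, 106 and 113 in Stat5b-/-. The levels were 4.12, 4.75 and 2.83 CPM in wt, 5.03, 3.82 and 3.88 in Stat5a-/- and 8.85, 7.24 and 8.61 in Stat5b-/-. The Stat5b-/- libraries lay above all 6 others, and wt and Stat5a-/- overlapped. Lyz2 was 2.10-fold higher in Stat5b-/- than in wt (log2 fold change 1.07, SE 0.20, adjusted p = 7.88e-04), and in Stat5a-/- the log2 difference was 0.13 (SE 0.22, adjusted p = 0.695). The direct comparison of Stat5b-/- with Stat5a-/- also passed the test (log2 fold change 0.95, SE 0.21, adjusted p = 0.00369), below a 2-fold change. Without wt replicate 3 the rise in Stat5b-/- was 0.88 on the log2 scale, and without Stat5b-/- replicate 1 it was 0.99, both under 2-fold but past the adjusted p. Reads that fit both Lyz2 and its close copy Lyz1 could not be assigned, and Lyz1 had at most 5 reads in a library.

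Receptors and adhesion molecules differed from gene to gene. Csf1r (ENSMUSG00000024621.15, chr18:61105572-61132149), the receptor for macrophage colony-stimulating factor, had 7, 14 and 14 reads in wt, 12, 6 and 10 in Stat5a-/- and 24, 21 and 15 in Stat5b-/-. This gave 0.444, 0.707 and 0.809 CPM in wt, 0.839, 0.488 and 0.902 in Stat5a-/- and 1.65, 1.44 and 1.14 in Stat5b-/-. All Stat5b-/- libraries were above the rest, although the counts were low. Csf1r was 2.13-fold higher in Stat5b-/- than in wt (log2 fold change 1.09, SE 0.32, adjusted p = 0.0136). This call was lost without wt replicate 1 (0.89, adjusted p = 0.0532) and without Stat5b-/- replicate 1 (0.94, adjusted p = 0.0612). In Stat5a-/- the log2 difference from wt was 0.17 (SE 0.37, adjusted p = 0.758), and Stat5b-/- exceeded Stat5a-/- by 0.92 (SE 0.34, adjusted p = 0.0498), which DESeq2 did not call (adjusted p = 0.111).

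Csf3r (ENSMUSG00000028859.14, chr4:126024550-126044440), the receptor for granulocyte colony-stimulating factor, had 1, 3 and 1 reads in wt, 3, 1 and 3 in Stat5a-/- and 3, 3 and 3 in Stat5b-/-. Itgam (ENSMUSG00000030786.18, chr7:128062640-128118491), the CD11b chain of the Mac-1 integrin, had 8, 11 and 3 reads in wt, 5, 3 and 4 in Stat5a-/- and 1, 5 and 7 in Stat5b-/-. The Itgam means were 0.412 ± 0.208, 0.318 ± 0.0643 and 0.314 ± 0.234 CPM, and the 3 lines overlapped. An overlapping gene model on the same strand, Gm49368, shares 68.7% of the exon bases of Itgam, and reads in shared exons are assigned to neither gene, so the Itgam count is too low by an unknown amount.

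Fcgr3 (ENSMUSG00000059498.13, chr1:171051174-171064935), the low-affinity Fc gamma receptor of myeloid and natural killer cells, moved opposite to Cebpb. It had 6, 18 and 12 reads in wt, 44, 34 and 32 in Stat5a-/- and 63, 43 and 66 in Stat5b-/-. The levels were 0.381, 0.909 and 0.693 CPM in wt, 3.08, 2.77 and 2.89 in Stat5a-/- and 4.32, 2.94 and 5.03 in Stat5b-/-. Every knockout library exceeded every wt library. Fcgr3 was 4.27-fold higher in Stat5a-/- (log2 fold change 2.09, SE 0.32, adjusted p = 1.63e-04) and 5.97-fold higher in Stat5b-/- (log2 fold change 2.58, SE 0.30, adjusted p = 1.40e-05). The knockout lines differed by 0.48 on the log2 scale (SE 0.25, adjusted p = 0.161), and their libraries overlapped.

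The related receptor Fcgr2b, the inhibitory Fc receptor of B cells, was the main transcript of its family in all lines. Per exon length Fcgr3 made up 2.6% ± 1.06 of the sum of Fcgr3, Fcgr2b and Fcgr4 in wt, 9.17% ± 0.581 in Stat5a-/- and 20.9% ± 4.86 in Stat5b-/- (SD, n = 3). Fcgr2b itself differed from wt by 0.23 in Stat5a-/- (adjusted p = 0.0988) and fell by 0.71 on the log2 scale in Stat5b-/- (adjusted p = 1.05e-04). Fcer1g, the signalling chain that carries Fcgr3 to the surface, was at 0.48 in Stat5a-/- (adjusted p = 0.0805) and rose in Stat5b-/- by 1.08 (adjusted p = 6.03e-04). Sequence is shared within this family, so that reads of near-identical stretches are uncertain.

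Taking the 10 genes by comparison, the direction was mixed. In Stat5a-/- against wt, 1 of the 10 genes was called higher (Fcgr3) and 2 were called lower (Cebpb and Cebpd). Called means a fold change of over 2 together with an adjusted p below 0.05, which held for 14.2% of all 13852 tested genes (7.75% higher and 6.49% lower), while the adjusted p alone was passed by 36% of them. In Stat5b-/- against wt, 3 were called higher (Fcgr3, Csf1r and Lyz2) and 1 lower (Cebpb), where 19.1% of all tested genes were called (10.6% higher and 8.44% lower) and 46.2% passed the adjusted p alone. In Stat5b-/- against Stat5a-/-, edgeR and DESeq2 each called 0 of the 5 tested, where edgeR called 11.4% of all tested genes (4.81% higher and 6.6% lower) and 33.9% passed the adjusted p alone (16.4% higher and 17.5% lower). Lyz2 and Csf1r passed the adjusted p alone, so 2 of the 5 are to be read against that 33.9%, and the same 2 had an unadjusted p under 0.05. The median log2 fold change of the 5 tested genes was 0.13 in Stat5a-/- and 1.07 in Stat5b-/-, against 0.01 and 0.02 over all tested genes. The other 5 genes could not enter these counts, so the counts do not describe the whole group. The 2 comparisons with wt share the wt libraries, so that the falls of Cebpb and the rises of Fcgr3 in them are not independent of each other.

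**Figure D3:**
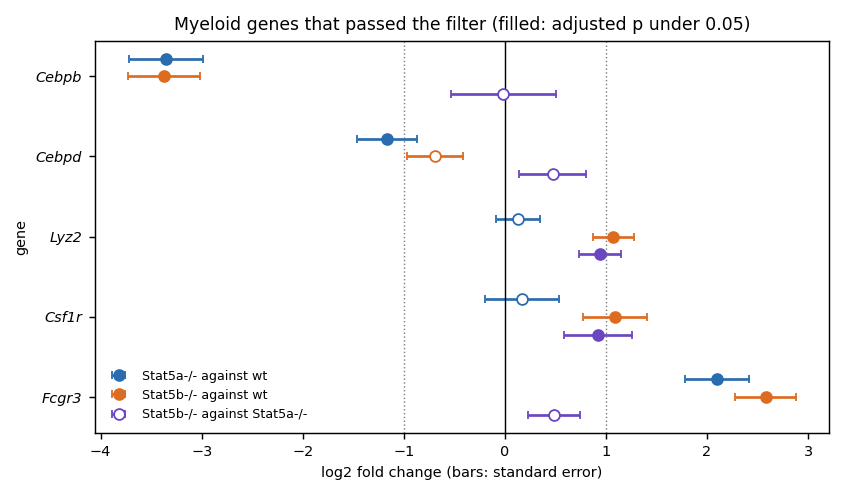
Log2 fold changes (points) and standard errors (bars) of the 5 tested genes in the 3 comparisons; filled points passed an adjusted p of 0.05 and dotted lines mark a 2-fold change. Cebpb lies near -3.4 in both knockout lines, Fcgr3 above 2 in both, and Lyz2 and Csf1r near 1 only where Stat5b-/- is compared.

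The summed CPM of the 7 T-cell genes also differed between the lines, since its ranges in wt, Stat5a-/- and Stat5b-/- did not overlap. With that level as a covariate, chosen after the data were seen, the 3 calls in Stat5a-/- were kept. Cebpb was then at -2.91 (adjusted p = 3.98e-04), Cebpd at -1.43 (adjusted p = 0.00968) and Fcgr3 at 1.63 (adjusted p = 0.00165). In Stat5b-/- none of the 4 calls passed. Cebpb was at -2.23 (adjusted p = 0.068), Fcgr3 at 1.26 (adjusted p = 0.137), Lyz2 at 0.64 (adjusted p = 0.376) and Csf1r at 0.81 (adjusted p = 0.506). The T-cell level of the Stat5b-/- libraries lay above that of all the others, and that of the Stat5a-/- libraries lay above all of wt. In both comparisons with wt its part and that of the line therefore cannot be told apart, also where calls were kept. The plot against T-cell reads shows both measures by library.

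**Figure D4:**
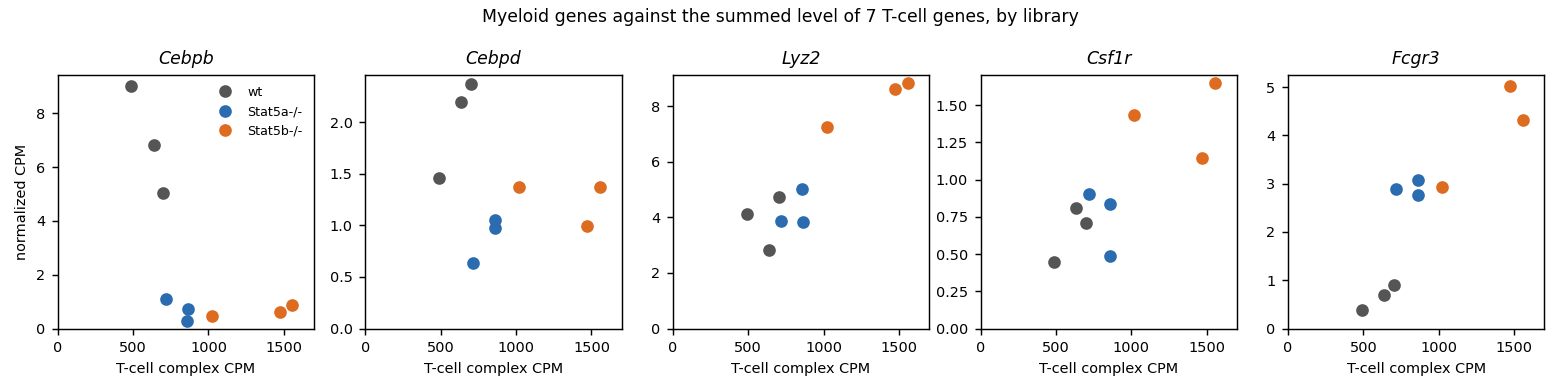
Normalized CPM of each tested gene against the summed normalized CPM of 7 T-cell genes, 1 point per library, coloured by line. The wt libraries sit at 489 to 701 CPM of T-cell genes and the Stat5b-/- libraries at 1021 to 1557, so that line and T-cell level go together.

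Markers of other cells were counted in the same way. Among 16 T-cell markers, 14 rose and 1 fell in Stat5b-/-, and 7 rose and 1 fell in Stat5a-/- (adjusted p under 0.05; 24.2% of all genes rose and 22% fell in Stat5b-/-, 19.8% and 16.3% in Stat5a-/-). Of the 7 rises in Stat5a-/-, those of Cd3e, Cd247, Cd8b1 and Trbc2 no longer passed without wt replicate 1 or without Stat5a-/- replicate 2. The sum of the 16 markers ran from 981 to 1317 CPM in wt, 1311 to 1531 in Stat5a-/- and 1631 to 2349 in Stat5b-/-. It includes Il7r, the 1 that fell in both knockout lines, at 374 CPM in wt, 174 in Stat5a-/- and 278 in Stat5b-/-. Of 7 natural killer cell markers 4 were tested, of which 3 rose and 1 fell in Stat5b-/- and 1 fell in Stat5a-/-, with sums of 20.1 to 25 CPM in wt, 17.1 to 20.9 in Stat5a-/- and 21.1 to 33.5 in Stat5b-/-. The 3 that rose in Stat5b-/- were Eomes (70 to 254 reads over the 9 libraries), Prf1 (57 to 142) and Klre1 (9 to 47), while Klrb1c (22 to 204 reads) fell. T cells can also express Eomes and Prf1. Of the 3 untested ones, Ncr1 had at most 5 reads in a library, Klra8 at most 7 and Gzma at most 16. Of 10 macrophage markers 5 were tested, of which 2 fell in Stat5a-/-, and 1 rose and 1 fell in Stat5b-/-. The macrophage sum was 37.3 to 38.9 CPM in wt, 13.8 to 17.1 in Stat5a-/- and 22 to 26.6 in Stat5b-/-. Most of this difference lay in Mrc1, at 21.4 CPM in wt, 2.58 in Stat5a-/- and 7.47 in Stat5b-/-, while C1qb, C1qc and Timd4 did not fall. The other fall in Stat5a-/-, that of Cd68, was lost without wt replicate 3 or Stat5a-/- replicate 1 (adjusted p of up to 0.0613). The 5 tested macrophage markers were read in every library, with 30 to 435 reads for Mrc1, 103 to 237 for Cd68, 25 to 53 for Timd4, 5 to 18 for C1qc and 2 to 15 for C1qb, the one that rose in Stat5b-/- (not without wt replicate 1 or 3 or Stat5b-/- replicate 1 or 2, adjusted p of up to 0.0823). Of the other 5, Vsig4 was at 0 in every library, C1qa had at most 4 reads, Marco 6, Adgre1 8 and Cd5l 9.

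For 7 dendritic cell markers (4 tested) the sum was 28.8 to 35.8 CPM in wt, 36.2 to 41.9 in Stat5a-/- and 19.3 to 21.7 in Stat5b-/-, and 3 rose and 1 fell in Stat5b-/- while none passed in Stat5a-/-. The 1 that fell, Bst2, weighed most in the sum, at 29.1 CPM in wt and 13.7 in Stat5b-/-. Of the 3 that rose, Siglech and Xcr1 no longer passed without wt replicate 1 or 2 or Stat5b-/- replicate 1 or 3 (adjusted p of up to 0.234 and 0.165). Erythroid markers (8, of which 2 tested) summed to 11.5 to 14.1, 11.8 to 14.6 and 2.81 to 3.96 CPM, and both tested ones fell in Stat5b-/-. For 1 of them, Klf1, the fall was lost without Stat5b-/- replicate 2 (adjusted p = 0.0582). Without Stat5b-/- replicate 1 its log2 fold change of -1.81 became -3.04. Megakaryocyte markers (7, of which 1 tested) summed to at most 1.14, 0.489 and 2.95 CPM, and the tested one, Gp9, fell in Stat5a-/- and rose in Stat5b-/-. The Stat5b-/- libraries overlapped those of wt for Gp9. Its rise was lost without wt replicate 2, wt replicate 3 or Stat5b-/- replicate 1 (adjusted p of up to 0.1035). Mast cell and basophil markers (7, of which 1 tested) summed to at most 0.698, 1.22 and 1.78 CPM, and the tested one, Cpa3, rose in Stat5b-/-. Without wt replicate 3 or Stat5b-/- replicate 1 this rise was lost (adjusted p of up to 0.0814). Of 8 stromal and endothelial markers only Pecam1, which leukocytes also express, was tested, and it rose in Stat5b-/-. Among 14 B-lineage markers 6 rose and 2 fell in Stat5a-/-, and 7 rose and 4 fell in Stat5b-/-, with sums of 5498 to 5850 CPM in wt, 7341 to 8026 in Stat5a-/- and 6610 to 7471 in Stat5b-/-. The part of other cell types in the levels of the myeloid genes was not tested.

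The wider myeloid programme was then followed by role. Rises and falls below are those at an adjusted p under 0.05, which 19.8% of all tested genes passed upward and 16.3% downward in Stat5a-/- against wt, and 24.2% and 22% in Stat5b-/- against wt. Among 7 partners and regulators of C/EBP proteins, 6 were tested. In Stat5a-/- 1 rose and 2 fell, and in Stat5b-/- 1 rose and 3 fell, with medians of -0.18 and -0.45. Trib2, a pseudokinase that promotes degradation of C/EBP alpha protein, was at 190 ± 7.37 CPM in wt, 17.5 ± 2.10 in Stat5a-/- and 24.2 ± 5.59 in Stat5b-/- (log2 fold change -3.44 and -2.97, adjusted p = 2.89e-09 and 7.70e-09). Its relative Trib1 rose in both knockout lines, by 0.75 and 1.08.

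Of 10 other myeloid transcription factors, 9 were tested, and 2 rose and 4 fell in each knockout line, with medians of 0.21 in Stat5a-/- and -0.17 in Stat5b-/-. The 2 rises of 9 are near the share of all genes that rose (19.8% and 24.2%). Spi1, which encodes PU.1, rose by 0.52 in Stat5a-/- (adjusted p = 0.0424) and was at 0.13 in Stat5b-/- (adjusted p = 0.589). The Spi1 call was lost without any 1 of wt replicates 2 and 3, the Stat5a-/- replicates or Stat5b-/- replicate 2 (adjusted p of up to 0.19). Gfi1, a repressor that acts in granulocytes and lymphocytes, went in opposite directions. It was at 4.02 ± 0.245 CPM in wt, 47.9 ± 9.0 in Stat5a-/- and 1.51 ± 0.892 in Stat5b-/-, with log2 fold changes of 3.57 and -1.41 (adjusted p = 9.61e-08 and 0.00291). The difference between the knockout lines was itself past the test (-4.98, adjusted p = 2.64e-08). Klf4, a monocyte factor, fell by 2.43 and 1.98 on the log2 scale, and Zeb2 fell by 1.19 and 1.13. Maf, a macrophage factor that T cells also express, rose by 1.74 in Stat5b-/-.

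**Figure D5:**
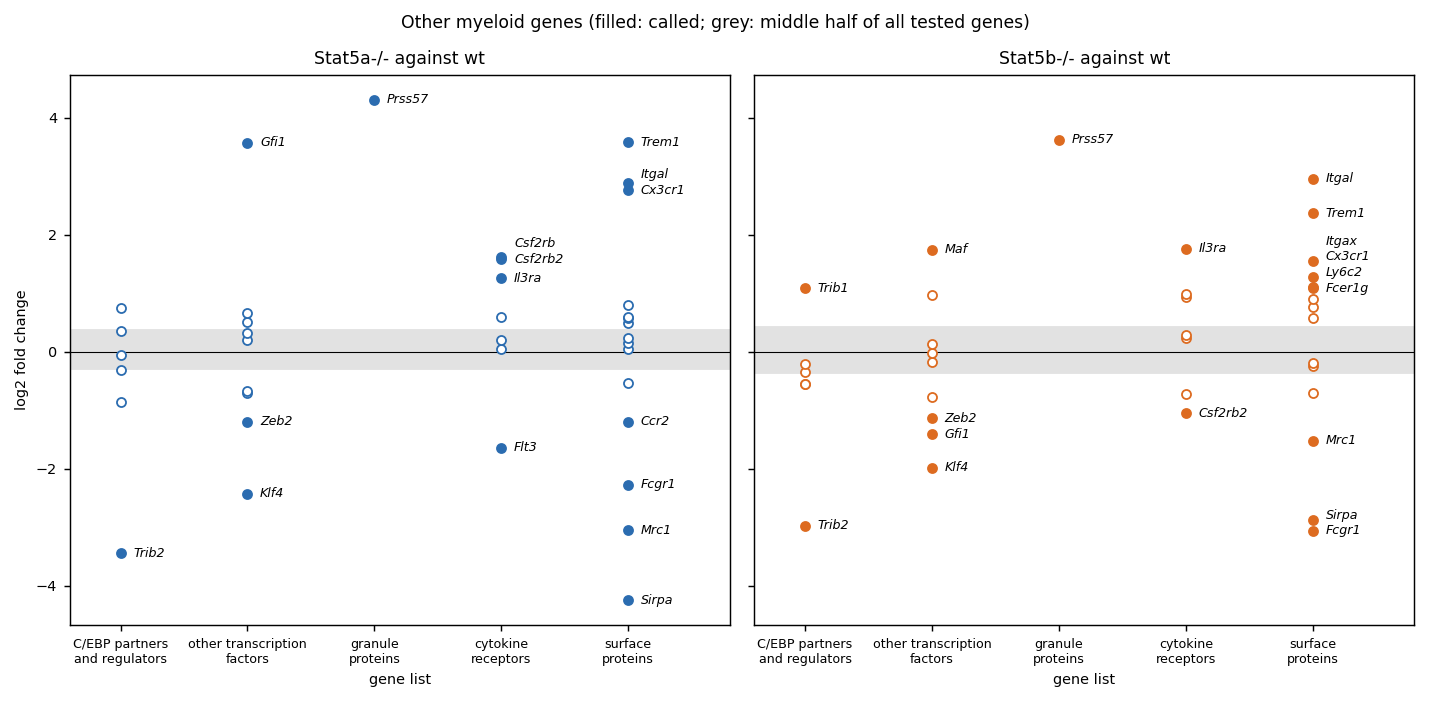
Log2 fold changes against wt of the tested genes in 5 myeloid gene lists, for Stat5a-/- (left) and Stat5b-/- (right); filled and named points were called, and the grey band holds the middle 50% of all tested genes. Prss57, Trem1 and Itgal are high in both panels, Trib2, Klf4, Zeb2 and Sirpa are low in both, and Gfi1 is high on the left and low on the right.

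Of 14 further granule and secreted proteins, 10 had at most 3 reads in every library, and 3 (Ctsg, Ms4a3 and Ltf) were at 0 throughout. Prss57 alone was tested. It encodes a neutrophil serine protease and had 8, 1 and 3 reads in wt, 68, 60 and 49 in Stat5a-/- and 44, 49 and 31 in Stat5b-/-. All knockout libraries exceeded those of wt, and the gene was 19.8-fold higher in Stat5a-/- (adjusted p = 1.77e-06) and 12.3-fold higher in Stat5b-/- (adjusted p = 1.21e-05). These sizes rest on few wt reads. Without wt replicate 1 they were 40.3-fold (adjusted p = 8.45e-07) and 25.1-fold (adjusted p = 4.03e-06). Another gene model covers 40.7% of its exon bases, so its count is uncertain. Prtn3, its granule companion, stayed at 1 to 12 reads.

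Of 8 myeloid cytokine receptors, 7 were tested, with 4 rising and 1 falling in Stat5a-/- and 3 rising and 2 falling in Stat5b-/- (medians 0.60 and 0.29). Csf2rb, the beta chain shared by the receptors of interleukin 3, interleukin 5 and GM-CSF, rose in Stat5a-/- from 73.3 to 225 CPM (log2 fold change 1.62, adjusted p = 1.69e-06) and was at 89.7 CPM in Stat5b-/- (0.29, adjusted p = 0.12). Its close copy Csf2rb2 rose by 1.58 in Stat5a-/- and fell by 1.05 in Stat5b-/-, and reads of the pair are uncertain. Il3ra rose in both, by 1.26 and 1.76, and Flt3 fell in both, by 1.64 and 0.73, the second no longer past the test without wt replicate 2, wt replicate 3 or Stat5b-/- replicate 2 (adjusted p of up to 0.0912).

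Among 21 integrins, Fc receptors and other surface proteins, 15 were tested. In Stat5a-/- 5 rose and 5 fell, and in Stat5b-/- 9 rose and 4 fell, with medians of 0.23 and 0.76. The 4 falls of 15 in Stat5b-/- are near the share of all genes that fell there (22%). Itgal, the LFA-1 chain of lymphocytes and other leukocytes, rose from 34.4 CPM to 254 in Stat5a-/- and 267 in Stat5b-/-. Trem1, an activating receptor of neutrophils and monocytes, rose by 3.58 and 2.36. Sirpa, an inhibitory receptor of macrophages, fell by 4.25 and 2.88. Fcgr1, the high-affinity Fc receptor of monocytes, fell by 2.27 and 3.06, opposite to Fcgr3. It had 28, 29 and 19 reads in wt, 4, 4 and 3 in Stat5a-/- and 5, 1 and 1 in Stat5b-/-, and without Stat5b-/- replicate 1 the latter value was -4.19 (adjusted p = 9.15e-05). Mrc1, the mannose receptor, fell by 3.05 and 1.52 and in Stat5b-/- exceeded its Stat5a-/- level 2.88-fold (adjusted p = 1.01e-04). Each list thus held genes that moved either way, apart from the single tested granule gene.

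The genes with the most similar levels were sought for the tested genes, by Pearson's r of log2(CPM + 1) over the 9 libraries, among 13851 other genes. These values mostly follow the 3 lines and are given as a description. Cebpb was closest to Cltb, a clathrin light chain (r = 0.997), and Gdf11, a growth factor (r = 0.993), and 607 genes had an r above 0.9. For Fcgr3 the closest were Chst15 (r = 0.989), a sulfotransferase, and Itgb2 (r = 0.988), the beta chain that pairs with Itgam and Itgal, with 625 genes above 0.9. Itgb2 averaged 66.6 CPM in wt, 101 in Stat5a-/- and 125 in Stat5b-/-. Lyz2 was closest to E430014B02Rik (r = 0.973) and Tmem260 (r = 0.969), Csf1r to Gm16069 (r = 0.978) and Gm42748 (r = 0.964), and Cebpd to Vcan (r = 0.954) and Pcdhb18 (r = 0.944). Only 55 genes passed 0.9 for Cebpd and 86 for Csf1r, against 200 for Lyz2.

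Overlap between genes also bears on the counts, which did not use strand. Antisense genes share 20.7% of the exon bases of Cebpb (Tmem189), 14.9% of Cebpd (Spidr) and 17.8% of Csf1r (Hmgxb3), and a read within them is assigned to neither gene. The shares of Mpo (15%, Gm11505) and Cebpa (1.93%, Gm45091) were overlapped by gene models with 0 reads.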

How the data were processed

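mRNA-seq was read in 9 libraries of 3 BCR/ABLp185+ cell lines. According to the study's methods and notes, the authors trimmed single-end reads with Trimmomatic, mapped them with STAR to GRCm38 and counted them on GENCODE M13 exons with featureCounts 1.5.1, without a strand option, and deposited the raw counts per gene. Groups follow titles and genotype. Another label, the description, calls the knockout cells wild-type lines and was not followed. GENCODE M21 named 50376 of 50686 genes, and positions are those deposited.

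Counts were normalized (TMM), filtered (filterByExpr) and tested by quasi-likelihood (glmQLFTest of edgeR 4.0.16, R 4.3.3, 1 fit over all 9 libraries, 13852 genes, Benjamini-Hochberg adjustment), and genes were called as in the study, at over 2-fold change with adjusted p below 0.05. Alternatives were DESeq2 1.42.0, RLE, no filter, 2 lines per fit, a test for a change beyond 1 log2 unit, a GC offset (loess, span 0.5), the replicate block and each library left out; the T-cell covariate was added after the data were seen. The steps were tested on simulated data. Genes, lists and rules were chosen with earlier results of these data known. Named were the 10 genes, Stat5a and Stat5b, genes from the up to 2 called per list and direction with the largest change, and the 2 genes most like each tested gene. Some genes of the lists that met this rule were left out. Cebpg, Fcgr2b, Fcer1g, Spi1, Pax5, Ebf1, Cd79a, Pecam1, Xcr1, Cd247 and the macrophage and natural killer cell markers given by reads, and untested genes, were chosen after their values were seen. Counting error of low reads sets the precision, and, with no molecular identifiers, copies made by PCR count as reads. Replicate numbers come from the titles. One B-lineage marker is not reported here.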

Additional observations from a re-analysis of the deposited data

How the results depend on the processing

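Of the log2 fold changes of the 5 tested genes under the alternatives, 243 kept their direction and their side of an adjusted p of 0.05, 25 no longer passed it, 4 came to pass it, and 12 changed direction. Counts of calls are not in this tally. In Stat5a-/- against wt the 3 calls stood whichever library was left out, and testing for more than 1 log2 unit of change left 2 of them, without Cebpd. In Stat5b-/- against wt, where 4 were called, that test left 2 (Cebpb and Fcgr3), and the T-cell covariate left 0. Leaving out 1 library gave 2 to 4 calls there, with 2 without Stat5b-/- replicate 1, 3 without wt replicate 1 (Csf1r lost) and 3 without wt replicate 3 (Lyz2 lost). In Stat5b-/- against Stat5a-/-, where 0 were called, the GC offset gave 1 (Csf1r), that offset with the replicate block gave 1, and leaving out 1 library gave 0 to 1, with Lyz2 called without Stat5a-/- replicate 1 or Stat5b-/- replicate 2 and Csf1r without Stat5b-/- replicate 3. Over all genes the covariate moved the rises in Stat5b-/- against wt from 1471 to 964, and testing for more than 1 log2 unit called 634 rises and 727 falls there in place of 1471 and 1169. That test called 636 and 581 in Stat5a-/- against wt in place of 1074 and 899, and 261 and 502 between the knockout lines in place of 666 and 914.

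Directions changed only for values near 0 or under the covariate. Lyz2 in Stat5a-/- against wt was -0.034 with the covariate and -0.062 to 0.30 with 1 library left out. Csf1r in the same comparison ran from -0.025 to 0.38. Between the knockout lines Cebpb was 0.29 with the GC offset, 0.32 with the offset and replicate block, 0.68 with the covariate, and -0.44 to 0.43 with 1 library left out, and Fcgr3 was -0.37 with the covariate. The cause was not tested.

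The replicate numbers did not pair the libraries (mean r of the deviations of libraries with equal numbers -0.126 over 9 pairs, 2 of them over 0.1). With the replicate block, 3 genes were called in Stat5a-/- against wt, 4 in Stat5b-/- against wt and 0 between the knockout lines, as without it, and Csf1r between the knockout lines no longer passed (adjusted p = 0.0894). That value also missed with DESeq2, RLE (adjusted p = 0.0531), no filter (adjusted p = 0.0828) and 2 lines in the fit (adjusted p = 0.0591), and ran from 0.0474 to 0.187 with 1 library left out. Low counts limit Csf1r (6 to 24 reads a library) and Cebpb in the knockout lines (4 to 13 reads), and Cebpa, Mpo, Elane and Csf3r, at 3 reads or fewer, allow no comparison.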
